A study of Mus musculus with 12 samples.

Results

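Genes for 10 RNA-binding regulators of muscle splicing were followed in the tibialis anterior of control and Smyd1 CKO mice: the muscleblind genes Mbnl1, Mbnl2 and Mbnl3, the CELF genes Celf1 and Celf2, the Rbfox genes Rbfox1 and Rbfox2, and Rbm20, Rbm24 and Ptbp1. They were taken by gene symbol, 10 of the 23923 genes listed in each file, and all 10 were present in all 12 files. In the CKO, Rbm20 fell by 0.58 on the log2 scale, with every CKO mouse below every control. Rbfox2 was 1.48-fold higher, which passed an unadjusted threshold of 0.05 and missed the adjusted one. The other 8 genes passed neither threshold on the deposited values, and 4 of them changed sign when the libraries were rescaled.

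RNA was sequenced from 12 mice, 6 per genotype, with 1 library each. Controls were Myf6 cre/+; Smyd1 flox/+ and CKOs were Myf6 cre/+; Smyd1 flox/-, so all mice carried Cre, and a fiber with complete recombination keeps 1 intact Smyd1 allele in a control and 0 in a CKO. The mice were of mixed C57BL6/J;129S1/SvImJ background, 6 weeks of age, and by the study's methods also carried the Rosa26 YFP allele. By the paper's account, the experiments after its fiber measurements, among which it reports the sequencing, used male tissue only. Cre is driven from the Myf6 locus, and the paper first detected its recombination in skeletal muscles in late gestation. Recombination in the other cells of the tissue was not measured here. Values are FPKM, fragment numbers divided by transcript length and by library size, and the smallest steps between low values gave an estimated 10600000 to 19000000 fragments per library. The tissue is bulk muscle, so fewer cells of a type and less RNA per cell cannot be told apart.

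SMYD1 is a muscle methyltransferase of the myofibril and nucleus. Smyd1 itself was 37.4 ± 5.64 FPKM in controls and 34.1 ± 4.36 FPKM in CKOs (mean ± SD, n = 6 each), a log2 fold change of -0.13 with an adjusted P of 0.545 (limma). In 3 CKO mice the value was below every control and in the others it overlapped. After the libraries were rescaled by their median ratios, the log2 fold change of Smyd1 was -0.32 (SE 0.083, adjusted P = 0.0797), past the unadjusted threshold, and 5 of 6 CKO mice were below every control. A value over the whole gene also counts fragments from exons outside the deleted stretch, so it is no full check of the genotype, and the groups are those of the labels. At the protein level, the paper's western blots found no detectable SMYD1 in CKO tibialis anterior. Skeletal myofiber markers (Acta1, Ckm, Myh4, Myh2, Myh1, Tnnt3 and Pvalb) summed to 17055 to 26110 FPKM in controls and 19913 to 24256 FPKM in CKOs, so the defining markers of the labelled tissue were abundant in every library.

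Splicing regulators of this kind bind short motifs in pre-mRNA and include or skip neighbouring exons according to where they bind. In skeletal muscle, muscleblind and CELF proteins act in opposite directions on many of the same exons, and after birth the balance moves toward muscleblind, giving the adult forms of proteins of the sarcomere, the triad and the membrane. Rbfox proteins work alongside them and are needed for muscle mass and calcium handling, RBM20 represses exons of titin, and RBM24 favours the inclusion of muscle-specific exons. PTBP1 represses many of those exons in dividing cells. The values here are gene levels and say nothing of which exons were used.

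The scale of the libraries matters for every value below. On the deposited FPKM the median of all 12695 genes tested was 0.18 higher in the CKO on the log2 scale, and 77.9% of genes had a positive difference. After each library was divided by its median ratio to a common reference (median-ratio scaling), the median was 0.0079 and 51.2% were positive. Both versions are therefore given.

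In order of level, controls had Mbnl1 at the top at 62.8 ± 10.8 FPKM (mean ± SD, n = 6), then Mbnl2 at 45.6 ± 7.63, Rbm24 at 26.1 ± 1.92, Rbfox1 at 24.1 ± 2.82, Rbm20 at 12.1 ± 1.74, Celf1 at 6.01 ± 0.495, Rbfox2 at 5.71 ± 1.06, Celf2 at 4.13 ± 0.517, Ptbp1 at 1.20 ± 0.249 and Mbnl3 at 0.0661 ± 0.0238 FPKM. Neighbours whose ranges overlapped were Mbnl1 with Mbnl2, Rbm24 with Rbfox1, Celf1 with Rbfox2 and Rbfox2 with Celf2. The adult-type regulators therefore filled the upper places and the embryonic-type Mbnl3 and Ptbp1 the lowest. The order in the CKO differed in 1 respect: Rbfox2 stood at place 5 and Rbm20 at place 6, with overlapping ranges, ahead of Celf1. The genes are spread over the genome, with Mbnl1 on chromosome 3, Mbnl2 on 14, Mbnl3 on X, Celf1 and Celf2 on 2, Rbfox1 on 16, Rbfox2 on 15, Rbm20 on 19, Rbm24 on 13 and Ptbp1 on 10 (GRCm38, GENCODE M21).

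**Figure D1:**
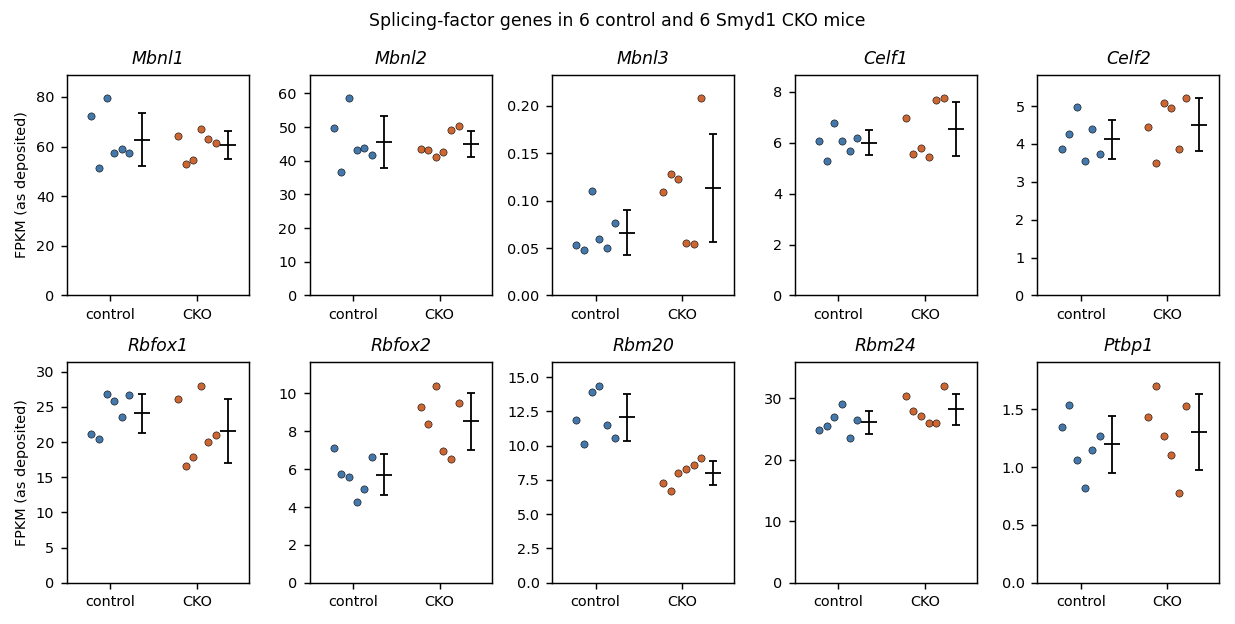
Deposited FPKM (vertical axes, linear and starting at 0) of the 10 genes in each mouse, with controls in blue and CKOs in orange; 1 point is 1 mouse and the black bar is the mean with SD, n = 6. Rbm20 is the panel in which the groups do not overlap, and in the Rbfox2 panel 4 of 6 CKO mice lie above every control.

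Of the 9 genes that passed the filter on low values, 1 had a higher CKO level and 1 a lower one past the unadjusted threshold (P below 0.05), where 18.1% of all tested genes were past it upward and 1.76% downward. Past the adjusted threshold (0.05) there were 0 upward and 1 downward, against 2.02% and 0.268% of the whole table. The upward share of the whole table rests on single libraries, with 257 genes past the adjusted threshold from all 12 mice, 1067 without control 1, 84 without CKO 1 and 1400 with sample weights. On scaled values, 1 was past the unadjusted threshold upward and 4 downward, against 6.62% and 7.44% of the whole table, and 0 and 1 past the adjusted one, against 0.764% and 0.709%. The median log2 fold change of the 9 was 0.10 as deposited and -0.078 scaled, each lower than that of all tested genes. All 9 exceeded the filter in all 12 libraries, so none entered through 1 group alone.

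**Figure D2:**
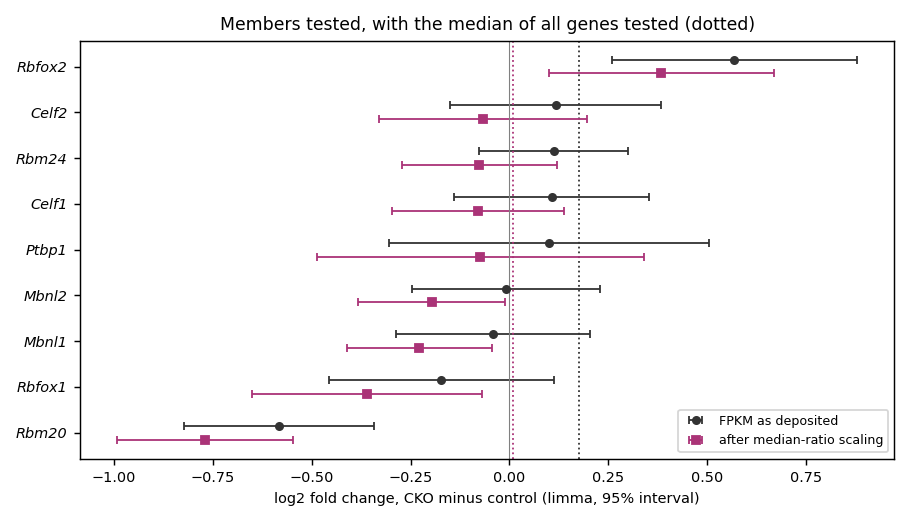
Log2 fold change, CKO minus control (horizontal axis), with its 95% interval from limma for the 9 genes tested, from deposited FPKM (black) and after median-ratio scaling (purple); dotted lines are the medians of all 12695 genes. Only the intervals of Rbm20 and Rbfox2 leave out 0 in both versions.

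Rbm20 encodes an RNA-binding protein best known for repressing exons of titin in heart and skeletal muscle. Its values in controls ran from 10.1 to 14.4 FPKM with a median of 11.7, and in CKOs from 6.71 to 9.07 with a median of 8.14. No CKO mouse reached the lowest control, a separation in this direction that 0.189% of all tested genes showed. The means were 12.1 ± 1.74 and 7.99 ± 0.868 FPKM (SD, n = 6), and the log2 fold change was -0.58 (SE 0.11, 95% interval -0.82 to -0.34, adjusted P = 0.0151, limma), or 0.668 of the control level. After median-ratio scaling the groups were still apart, at 10.7 to 15.7 and 6.34 to 8.24, as were 0.74% of the whole table in this direction, and the log2 fold change was -0.77 (SE 0.10, adjusted P = 0.00213). The complete separation in the other direction, every CKO above every control, was seen for 0 of the 9 genes on either scale, against 2.23% of the whole table as deposited and 0.788% scaled.

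The adjusted call for Rbm20 did not rest on any single mouse. Leaving out any single mouse kept the log2 fold change between -0.63 and -0.53 with an adjusted P of at most 0.0492. The summed satellite cell markers Pax7 and Myf5 also separated the groups, although neither gene did so alone, with sums of 0.300 to 0.961 FPKM in controls and 1.05 to 1.605 in CKOs, and their part in the result was not tested. Titin, the transcript most closely tied to RBM20, could not be compared: Ttn was listed at 0 in 3 of 6 controls and 5 of 6 CKOs, and it failed the filter.

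By Pearson correlation over the 12 libraries after median-ratio scaling, the 3 tested genes with a pattern most like that of Rbm20 were Tfdp1 (r = 0.947), Smyd2 (r = 0.945) and Nfatc3 (r = 0.937). These are a partner of E2F transcription factors, a lysine methyltransferase and a calcineurin-dependent transcription factor, respectively. The points share their libraries and genotype groups, and r is a description here.

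Rbfox2 encodes the Rbfox paralog that is present in myoblasts and in many other cells. Its values in controls ran from 4.25 to 7.14 FPKM with a median of 5.66, and in CKOs from 6.55 to 10.4 with a median of 8.84. In 4 of the 6 CKO mice Rbfox2 was above every control, and CKO 4 and CKO 5, at 6.96 and 6.55 FPKM, lay within the control range. The log2 fold change was 0.57 (SE 0.15, 95% interval 0.26 to 0.88, adjusted P = 0.0564, limma), with means of 5.71 ± 1.06 and 8.52 ± 1.52 FPKM (SD, n = 6). After median-ratio scaling it was 0.38 (SE 0.13, adjusted P = 0.194), and both passed the unadjusted threshold. The adjusted call turned on single mice: without control 1 the adjusted P was 0.0158 and without CKO 5 it was 0.0291, both past the threshold, whereas without CKO 1 it was 0.138.

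Rbfox1, the paralog that predominates in mature muscle fibers and neurons, ran from 20.5 to 26.9 FPKM in controls with a median of 24.7, and from 16.6 to 28.0 in CKOs with a median of 20.5. In 3 CKO mice Rbfox1 was below every control and in CKO 4 it was above every control. The log2 fold change was -0.17 (SE 0.13, adjusted P = 0.475). It was -0.36 after median-ratio scaling (SE 0.14, adjusted P = 0.236), so the direction was kept and the unadjusted threshold was passed on the scaled values only.

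The 2 Rbfox genes were then compared within each mouse, as a log2 ratio, which does not depend on the scale of the library. Rbfox1 exceeded Rbfox2 by 2.96 to 6.07 times in controls, with a median of 4.39, and by 1.72 to 4.03 times in CKOs, with a median of 2.51. In 4 CKO mice the ratio was below every control and in 3 controls it was above every CKO. The mean log2 ratio was 2.07 ± 0.36 in controls and 1.33 ± 0.45 in CKOs (SD, n = 6), a difference of -0.74 (exact permutation test over all assignments of mice to groups, two-sided, P = 0.0173, adjusted P = 0.0866 over the 5 ratios tested). The smallest P this design allows is 0.00216. Expressed as a share, Rbfox2 was 19.3 ± 3.94% of the summed Rbfox1 and Rbfox2 FPKM in controls and 28.7 ± 6.27% in CKOs. Leaving out each mouse in turn moved the difference between -0.88 and -0.63, with an unadjusted exact P of 0.00649 to 0.0303.

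The 3 tested genes whose pattern was most like that of Rbfox2 over the 12 libraries, after scaling, were F2r, a thrombin receptor (r = 0.955), Bre, a subunit of a deubiquitinating complex (r = 0.93), and Hectd3, a ubiquitin ligase (r = 0.921). As for Rbm20, these values describe libraries that share their groups.

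The CKO mice with the most Rbfox2 were CKO 3 at 10.4, CKO 6 at 9.51 and CKO 1 at 9.28 FPKM. The same mice had the highest summed slow-fiber markers (Myh7, Tnnt1, Tnni1 and Myl2), at 60.8, 217 and 92.9 FPKM, whereas the other 3 CKOs ranged from 7.52 to 15.6 and the controls from 3.89 to 21.4. Of the 4 slow markers, 4 were higher past the unadjusted threshold (3 after scaling) and 0 past the adjusted one. CKO 3, CKO 6 and CKO 1 also had the highest summed markers of embryonic or regenerating muscle (Myh3, Myh8, Myog and Myod1), at 31.0, 49.6 and 38.6 FPKM. The other CKOs ranged from 15.9 to 22.7 and the controls from 5.99 to 17.6, so that 5 CKO mice were above every control. Of these 4 markers, 3 were higher past the unadjusted threshold and Myh3 also past the adjusted one, or 2 and 0 after scaling. For both lists, the whole-table shares higher past the unadjusted threshold were 18.1% as deposited and 6.62% scaled. Past the adjusted threshold they were 2.02% and 0.764%. CKO 2 departed from this order, with 8.40 FPKM of Rbfox2, above every control, and a slow marker sum of 7.62. Rbm20 showed no such order among the CKO mice, with 7.99, 9.07 and 7.29 FPKM in CKO 3, CKO 6 and CKO 1 and 6.71 to 8.59 in the others. The part of fiber type in the Rbfox2 difference was not tested.

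**Figure D3:**
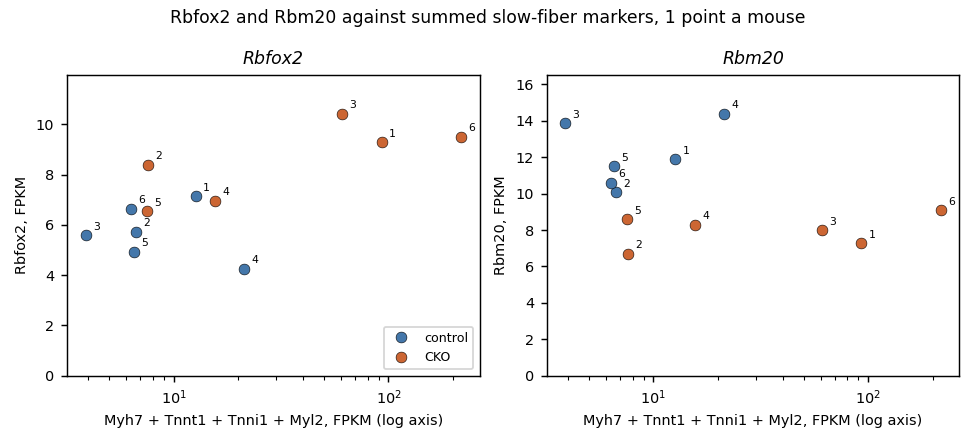
Rbfox2 (left) and Rbm20 (right) in deposited FPKM against the summed FPKM of Myh7, Tnnt1, Tnni1 and Myl2 (horizontal axis, log scale), with 1 numbered point per mouse, controls in blue and CKOs in orange. CKO 1, 3 and 6 lie to the right at 60.8 to 217 FPKM and hold the highest Rbfox2 values, while all 6 CKOs lie below all 6 controls for Rbm20.

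Mbnl1 and Mbnl2 encode the main muscleblind proteins of adult muscle. Mbnl1 ran from 51.2 to 79.5 FPKM in controls with a median of 58.2, and from 53.0 to 66.9 in CKOs with a median of 62.4. Mbnl2 ran from 36.6 to 58.6 FPKM in controls with a median of 43.4, and from 41.0 to 50.4 in CKOs with a median of 43.3. The CKO range lay inside the control range for both genes. The log2 fold changes were -0.040 for Mbnl1 (SE 0.12, 95% interval -0.29 to 0.20, adjusted P = 0.869) and -0.0089 for Mbnl2 (SE 0.11, 95% interval -0.25 to 0.23, adjusted P = 0.977).

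Scaling moved both muscleblind genes down. The log2 fold change became -0.23 for Mbnl1 (SE 0.086, adjusted P = 0.234) and -0.20 for Mbnl2 (SE 0.087, adjusted P = 0.323), both past the unadjusted threshold. On the scaled values 5 of 6 CKO mice were below every control for Mbnl1 and 4 of 6 for Mbnl2. Neither passed the adjusted threshold on either scale. Mbnl1 made up 57.9 ± 0.796% of the summed FPKM of the muscleblind genes in controls and 57.3 ± 2.55% in CKOs (SD, n = 6).

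Mbnl3, the paralog of embryonic and regenerating muscle, was near the limit of detection. It ran from 0.0475 to 0.110 FPKM in controls with a median of 0.0562, and from 0.0542 to 0.208 in CKOs with a median of 0.116. The values of the 12 libraries were all close to whole multiples of 1 step (within 0.0291 of a whole number), the largest tried that fitted them. Read in that way they stood for 5 to 13 fragments in a control, 46 in all, and 5 to 23 in a CKO, 82 in all. A smaller step would give more fragments, whereas the annotated transcript length gave 2.66 to 12.3 per library. In 3 CKO mice Mbnl3 was above every control and in 3 controls it was below every CKO. The gene did not pass the filter. With no filter the log2 fold change was 0.33 (SE 0.17, adjusted P = 0.492) and after scaling it was 0.24 (adjusted P = 0.829), neither past the unadjusted threshold and both understated by the pseudocount of 0.1, which is of the size of the values. CKO 1, CKO 3 and CKO 6, the mice with the highest slow-fiber and embryonic markers, had 18, 15 and 23 fragments. CKO 2 had 13. These fragment numbers are not divided by library size, and CKO 1 had the largest estimated library. By FPKM the order differed, with 0.208 in CKO 6, 0.128 in CKO 2, 0.123 in CKO 3 and 0.109 in CKO 1. The value of CKO 1 was below that of control 3, at 0.110 FPKM.

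Celf1 and Celf2 encode CELF proteins, whose nuclear activity falls as muscle matures. Celf1 ran from 5.29 to 6.76 FPKM in controls with a median of 6.07, and from 5.43 to 7.75 in CKOs with a median of 6.38. Celf2 ran from 3.56 to 4.97 FPKM in controls with a median of 4.06, and from 3.50 to 5.21 in CKOs with a median of 4.70. The groups overlapped for both, although 3 CKO mice exceeded every control for Celf1. The log2 fold changes of 0.11 for Celf1 (SE 0.12, adjusted P = 0.624) and 0.12 for Celf2 (SE 0.13, adjusted P = 0.617) turned to -0.078 (adjusted P = 0.803) and -0.067 (adjusted P = 0.871) after median-ratio scaling. The 95% intervals as deposited were -0.14 to 0.35 and -0.15 to 0.38.

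Rbm24, which is induced as myoblasts differentiate, ran from 23.6 to 29.1 FPKM in controls with a median of 25.9, and from 25.9 to 32.0 in CKOs with a median of 27.5. In 2 CKO mice it was above every control and in 3 controls it was below every CKO. The log2 fold change was 0.11 (SE 0.088, 95% interval -0.076 to 0.30, adjusted P = 0.481) as deposited and -0.076 (adjusted P = 0.787) after scaling. As deposited it had the smallest standard error of the 9.

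Ptbp1, the polypyrimidine tract-binding protein of proliferating cells, ran from 0.819 to 1.54 FPKM in controls with a median of 1.21, and from 0.776 to 1.71 in CKOs with a median of 1.35. The groups overlapped almost entirely. Its log2 fold change was 0.10 (SE 0.19, 95% interval -0.30 to 0.50, adjusted P = 0.792) as deposited and -0.073 (adjusted P = 0.914) after scaling, with the widest interval of the 9 genes.

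The remaining balances between adult-type and embryonic-type regulators asked whether a shift of the kind seen for Rbfox was shared by the other pairs. None of them passed an exact permutation test. The log2 ratio of Mbnl1 to Mbnl3 was 8.56 ± 0.18 in controls and 8.19 ± 0.45 in CKOs, a difference of -0.37 (exact P = 0.104, adjusted P = 0.188). This difference depends on the pseudocount of 0.1, which exceeds most Mbnl3 values: it was -0.72 with none (exact P = 0.0779) and -0.10 with a pseudocount of 1 (exact P = 0.383). Without a pseudocount the ratio itself was 1009 ± 245 in controls and 687 ± 400 in CKOs (SD, n = 6). With the pseudocount of 0.1, the log2 ratio was below every control in 4 of 6 CKO mice. In CKO 4 and CKO 5 this log2 ratio was 8.75 and 8.68, within the control range of 8.35 to 8.89. For the same log2 ratio, the exact P was 0.0346 without CKO 4 and 0.0476 without CKO 5.

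Mbnl1 stood at 9.33 to 11.9 times Celf1 in controls and at 7.95 to 12.3 times in CKOs, and the mean log2 ratio differed by -0.15 (exact P = 0.225, adjusted P = 0.281). The ratio was below every control in 3 CKO mice and above every control in CKO 4, and without CKO 4 the difference was -0.23 (exact P = 0.0325). Summing Mbnl1 with Mbnl2 and Celf1 with Celf2 gave ratios of 9.20 to 12.3 in controls and 8.64 to 10.6 in CKOs, a log2 difference of -0.14 (exact P = 0.113, adjusted P = 0.188). The ratio of Rbm24 to Ptbp1 had the smallest difference, 0.012 on the log2 scale (exact P = 0.955, adjusted P = 0.955), with ratios of 16.5 to 35.5 and 16.3 to 33.4. The difference between the Rbfox pair and the other pairs was not tested.

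**Figure D4:**
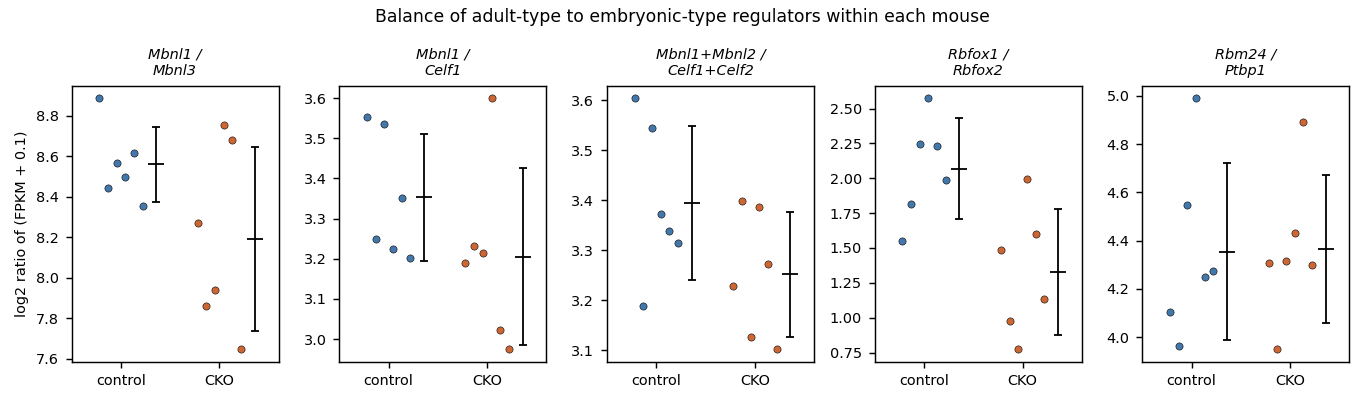
Log2 ratio of FPKM + 0.1 within each mouse (vertical axes, each with its own range that does not start at 0) for the 5 balances; points are mice, controls in blue and CKOs in orange, and bars are the mean with SD, n = 6. The Rbfox1 to Rbfox2 ratio has the lowest exact P, 0.0173, and the groups overlap in every panel.

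Other members of the same gene families were followed in the same way. Of 9 such genes, Celf3, Celf4, Celf5, Celf6 and Rbfox3 failed the filter, and Celf6 was at 0 in every library. Among the 4 tested, 3 were past the unadjusted threshold upward and 0 downward, beside 18.1% and 1.76% of the whole table. The adjusted threshold was passed by 0, and the median log2 fold change was 0.37. After scaling, 2 were upward (Ptbp2 and Matr3), beside 6.62% of the whole table, and the median was 0.18. Ptbp2, a paralog of Ptbp1, was at 3.97 ± 0.501 FPKM in controls and 5.35 ± 0.456 in CKOs (log2 fold change 0.42, adjusted P = 0.0516, limma, and 0.24 scaled, adjusted P = 0.22). As deposited its groups did not overlap, a separation in this direction that 2.23% of all tested genes showed. Matr3, a nuclear matrix protein that works with PTB proteins, had a log2 fold change of 0.44 (adjusted P = 0.0731), Ptbp3 one of 0.31 (adjusted P = 0.247) and Rbm38, an RBM24 paralog, one of -0.12 (adjusted P = 0.605).

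SR proteins, which promote exon inclusion, and the kinases that phosphorylate them had, of 21 tested, 6 past the unadjusted threshold upward, 0 downward and 0 past the adjusted one, where the whole table had 18.1% upward and 1.76% downward. Their median log2 fold change of 0.19 was close to that of all tested genes, and after scaling 0 passed and the median was 0.0068. The smallest P values belonged to the kinases Clk3 (0.31, adjusted P = 0.119) and Clk2 (0.42, adjusted P = 0.163), to Srsf1 (0.28, adjusted P = 0.194) and to the muscle-specific kinase Srpk3 (0.45, adjusted P = 0.205), the first value in each case being the log2 fold change.

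The hnRNP proteins, often repressors of exons, had 4 of 22 past the unadjusted threshold upward (18.1% of the whole table), 0 downward (1.76%), 0 past the adjusted one, and a median of 0.095. After scaling there were 0 upward and 2 downward (6.62% and 7.44% of the whole table), with a median of -0.081. Hnrnpu had the smallest P, with a log2 fold change of 0.37 (adjusted P = 0.082), followed by Hnrnpf at 0.41 (adjusted P = 0.147), Hnrnpm at 0.27 (adjusted P = 0.159) and Hnrnpr at 0.31 (adjusted P = 0.16). Other splicing regulators had 5 of 26 tested past the unadjusted threshold upward and 0 downward, beside 18.1% and 1.76% of the whole table. The adjusted threshold was passed by 0, and the median was 0.20. After scaling, 1 was upward and 2 downward, beside 6.62% and 7.44% of the whole table, and the median was 0.0095. In that list Rbm4, a regulator of myogenic exons that opposes PTB, went from 1.73 ± 0.486 to 2.75 ± 0.405 FPKM with a log2 fold change of 0.67 (adjusted P = 0.0548; 0.49 scaled, adjusted P = 0.167). Rbm5 was at 0.34 (adjusted P = 0.105), the RNA helicase gene Ddx17 at 0.28 (adjusted P = 0.106) and Rbms3 at 0.45 (adjusted P = 0.221).

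Genes with muscle exons known to be regulated by these proteins were compared at the gene level. Of 27 tested, 6 were past the unadjusted threshold upward and 1 downward, beside 18.1% and 1.76% of the whole table, and the median was 0.096. Past the adjusted threshold there were 2 upward and 0 downward, beside 2.02% and 0.268% of the whole table. After scaling there were 4 upward and 7 downward past the unadjusted threshold, beside 6.62% and 7.44% of the whole table, with a median of -0.093. The adjusted threshold was then passed by 0, where 0.764% of the whole table passed it upward and 0.709% downward. The 1 gene downward as deposited was the tropomyosin gene Tpm1, at -0.40 (adjusted P = 0.223; -0.59 scaled, adjusted P = 0.088). The smallest P among the 7 downward on scaled values was that of Tpm2, another tropomyosin gene, at -0.42 (adjusted P = 0.0601; -0.23 as deposited, adjusted P = 0.291). Both were named after their values were seen. Dmd, the dystrophin gene, rose from 28.4 ± 2.11 to 44.6 ± 8.89 FPKM (SD, n = 6), a log2 fold change of 0.63 (SE 0.13, adjusted P = 0.0188; 0.44 scaled, adjusted P = 0.0573). Camk2d, a calcium/calmodulin-dependent kinase gene, rose from 5.94 ± 0.9 to 9.94 ± 2.9 FPKM, a log2 fold change of 0.70 (SE 0.17, adjusted P = 0.0493; 0.51 scaled, adjusted P = 0.108). In both, 5 of 6 CKO mice were above every control. Mef2c, a myogenic transcription factor, was at 0.48 (adjusted P = 0.083) and Bin1, a gene of T-tubule formation, at 0.37 (adjusted P = 0.0976).

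**Figure D5:**
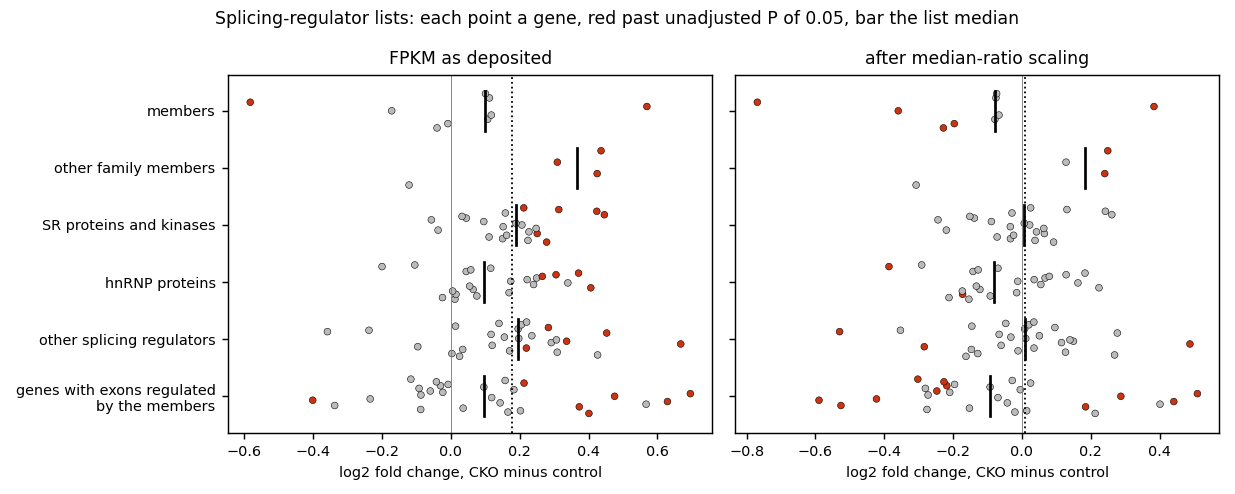
Log2 fold change, CKO minus control (horizontal axes), of each tested gene in the 6 lists, from deposited FPKM (left) and after median-ratio scaling (right); red points pass an unadjusted P of 0.05, black bars are list medians and the dotted line is the median of all 12695 genes. Most points of the 4 lists of other splicing regulators lie right of 0 on the left, with medians of 0.095 to 0.37. On the right 3 of the 4 medians lie between -0.081 and 0.0095 and that of the other family members at 0.18, whereas Rbm20 stands at the left edge of both panels.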

How the data were processed

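One library per mouse was sequenced from the tibialis anterior of 6 controls and 6 CKOs. The authors removed ribosomal RNA (ScriptSeq Complete Gold), aligned reads with bowtie2 and tophat (at most 2 mismatches), dropped reads with several placements and deposited FPKM from cufflinks; per the labels, the versions were TopHat2 2.0.10 and Cufflinks 2.1.1 on mm9. Their own count-based DESeq calls were not analysed here. The annotation is not given in the sources used here.

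Of the 23950 rows in a file, 27 carried dates instead of gene symbols and were not used. The main test was limma 3.58.1 (R 4.3.3) with an intensity trend on log2(FPKM + 0.1), keeping genes that reached 0.1 FPKM in 6 or more libraries, two-sided, with Benjamini-Hochberg adjustment over 12695 genes. A fold change on this scale understates that of low genes. For ratios within a mouse, groups were compared by exact permutation of all group assignments (Python 3.11.15, numpy 2.4.6), adjusted over 5. P-values rest on separate mice. Depth was estimated from the steps of low values (scipy 1.17.1), with transcript lengths from GENCODE M21 (GRCm38). For Mbnl3 the annotated length would give 2.66 to 12.3 fragments per library rather than 5 to 23. The code was tested on simulated data.

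The genes and lists were chosen with earlier results of these data known. The text names all 10 genes, from each of 5 lists (other family members, SR proteins and their kinases, hnRNP proteins, other splicing regulators, genes with regulated muscle exons) at most 4 genes with the smallest P, the 3 most correlated genes for each member past the unadjusted threshold, and Smyd1. Genes named among those failing the filter, with Ttn, and cell type markers come from the same lists. Scaling without the filter and whole fragments for Mbnl3 were added after seeing the data. Libraries with the same number did not deviate together (r from -0.0861 to 0.164), so they were not treated as pairs.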

Additional observations from a re-analysis of the deposited data

How the results depend on the processing

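Rbm20 stayed lower in the CKO with an adjusted P below 0.05 in all 22 alternatives run for it, with log2 fold changes of -0.79 to -0.53. Rbfox2 stayed higher in all 22, at 0.36 to 0.69, and passed the adjusted threshold in 5. The count of members higher at an adjusted P was 1 in place of 0 with a filter at 1 FPKM, with the replicate number as a block (Rbfox2, adjusted P = 0.0205) and with sample weights, and 0 to 1 when each mouse was left out. The block alone changed no other call. The count lower at an unadjusted P was 4 in place of 1 with median-ratio scaling, 4 with the length and GC correction and 3 when this was joined to the block, where Mbnl2 no longer passed.

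Signs turned for 6 members that passed neither threshold on the deposited values. Sample weights gave 0.011 for Mbnl1 and 0.0049 for Mbnl2, and leaving out each mouse gave -0.096 to 0.031 and -0.069 to 0.066. Median-ratio scaling, quantile normalization and the length and GC correction gave -0.078, -0.052 and -0.099 for Celf1, -0.067, -0.055 and -0.082 for Celf2, and -0.073, -0.10 and -0.089 for Ptbp1. Scaling and the correction gave -0.076 and -0.065 for Rbm24. The block left the corrected values as they were. Scaling, quantile normalization and the correction each remove the shift of all genes.

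Without 1 mouse at a time, the difference of the Mbnl1 to Mbnl3 balance ran from -0.48 to -0.26 and that of Mbnl1 to Celf1 from -0.23 to -0.10, past the unadjusted threshold only without CKO 4 or, for the first, CKO 5. Rbm24 to Ptbp1 ran from -0.094 to 0.14. Of 362 recomputed values, 315 were unchanged. For a fold change this means the same direction and side of the adjusted threshold, and for a balance the same direction and side of the unadjusted one. For a count of members it means an equal count.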

Other observations

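The markers of other cell types in the tissue moved in different ways. Both satellite cell markers, both tested adipocyte markers, 2 of 5 fibroblast markers and 1 of 4 Schwann cell markers were higher past the unadjusted threshold, and 0 of any of these lists passed the adjusted one. After median-ratio scaling these counts were 1, 1, 1 and 0. The whole table had 18.1% of genes higher past the unadjusted threshold as deposited and 6.62% scaled. Adipocyte markers (Adipoq, Plin1 and Cfd) summed to 0.646 to 2.38 FPKM in controls and 1.84 to 6.40 in CKOs, and Schwann cell markers to 2.82 to 6.30 and 4.16 to 8.43. The fibroblast sum was highest in a control, 680 FPKM in control 1, against 177 to 224 in the other controls and 243 to 403 in CKOs. Control 1 also had the highest immune sum, 26.9 FPKM. Of the endothelial, immune, smooth muscle and pericyte, and erythrocyte markers, 0 passed the unadjusted threshold in limma, and their summed ranges overlapped. Among the 7 skeletal myofiber markers, 3 were past the unadjusted threshold upward and 1 downward (3 and 3 after scaling). The whole-table shares downward were 1.76% as deposited and 7.44% scaled. Myh1 passed the adjusted threshold upward on both scales, as did 2.02% of the whole table as deposited and 0.764% scaled. The part of these cells in the differences of Rbm20 and Rbfox2 was not tested.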
